A study of Homo sapiens with 18 samples.

Results

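The angiogenic and secreted hypoxia factors are 10 genes taken by symbol from the 38055 genes of the whole transcriptome table: the VEGF ligands VEGFA, VEGFB, VEGFC and PGF, the VEGF co-receptor NRP1, and the secreted factors ADM, EDN1, ANGPTL4, STC1 and STC2. They were followed in wild-type HCT116 cells, a human colorectal carcinoma line of epithelial origin, grown in 2D culture in McCoy's 5A medium with serum. The cells were collected on day 3, at 50% confluency, and on day 5, at 250% confluency, and whole cell RNA was sequenced from 3 libraries labelled as biological replicates on each day. Days in culture and cell density rose together in this design, so their parts cannot be told apart, and day 7 values of these genes were not analysed here.

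Hypoxia-inducible factors (HIFs) are transcription factors whose alpha subunits are destroyed when oxygen is plentiful and which accumulate and bind DNA when it is scarce. Among the genes they are known to turn on are several whose products leave the cell: VEGFA, the main growth factor for blood vessels, adrenomedullin (ADM), a vasodilator peptide, and ANGPTL4, an inhibitor of lipoprotein lipase. Stanniocalcins are secreted glycoproteins tied to calcium and phosphate handling and to cell stress, and endothelin (EDN1) is a vasoconstrictor peptide. Colon carcinoma cells are a known source of VEGFA, while the receptors that answer it are mostly carried by endothelial cells.

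RefSeq promoter windows on GRCh38, from 250 bases before to 50 bases after a transcription start, were used for 7 of the 10 genes, VEGFB, VEGFC, PGF, ANGPTL4, ADM, EDN1 and STC2. They are shown for the 3 genes with the largest rises among these 7 (ANGPTL4, ADM and STC2), for VEGFB, which rose less, and for PGF, which fell. The windows are chr19:8363905-8364204 on the plus strand, chr11:10304823-10305122 on the plus strand, chr5:173328365-173328664 on the minus strand, chr11:64234334-64234633 on the plus strand and chr14:74955548-74955847 on the minus strand. Each is written in the direction of transcription, and capitals mark the core of the HIF binding motif, searched as ACGTG or GCGTG on either strand, so that a match to the other strand reads CACGT or CACGC.
ANGPTL4: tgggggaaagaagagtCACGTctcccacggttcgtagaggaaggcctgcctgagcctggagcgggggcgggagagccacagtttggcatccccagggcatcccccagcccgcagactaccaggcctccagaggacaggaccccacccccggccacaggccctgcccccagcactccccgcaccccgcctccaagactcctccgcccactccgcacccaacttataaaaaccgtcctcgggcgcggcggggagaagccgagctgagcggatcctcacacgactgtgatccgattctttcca
ADM: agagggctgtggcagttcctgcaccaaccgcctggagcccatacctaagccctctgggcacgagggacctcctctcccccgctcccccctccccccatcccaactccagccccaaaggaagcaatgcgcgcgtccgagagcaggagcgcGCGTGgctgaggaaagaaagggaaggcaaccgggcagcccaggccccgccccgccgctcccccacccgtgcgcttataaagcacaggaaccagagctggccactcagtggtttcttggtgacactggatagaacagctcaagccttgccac
STC2: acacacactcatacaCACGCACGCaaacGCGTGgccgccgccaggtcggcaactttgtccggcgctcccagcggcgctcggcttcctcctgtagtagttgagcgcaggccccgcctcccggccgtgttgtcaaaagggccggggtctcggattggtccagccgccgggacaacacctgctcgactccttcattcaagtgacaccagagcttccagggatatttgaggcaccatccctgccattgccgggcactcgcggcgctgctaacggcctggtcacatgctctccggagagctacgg
VEGFB: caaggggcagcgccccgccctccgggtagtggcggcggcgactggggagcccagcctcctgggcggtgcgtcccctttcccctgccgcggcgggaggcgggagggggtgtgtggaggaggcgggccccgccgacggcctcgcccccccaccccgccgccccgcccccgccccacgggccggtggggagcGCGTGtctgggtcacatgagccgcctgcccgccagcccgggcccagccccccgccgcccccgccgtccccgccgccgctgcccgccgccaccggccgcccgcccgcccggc
PGF: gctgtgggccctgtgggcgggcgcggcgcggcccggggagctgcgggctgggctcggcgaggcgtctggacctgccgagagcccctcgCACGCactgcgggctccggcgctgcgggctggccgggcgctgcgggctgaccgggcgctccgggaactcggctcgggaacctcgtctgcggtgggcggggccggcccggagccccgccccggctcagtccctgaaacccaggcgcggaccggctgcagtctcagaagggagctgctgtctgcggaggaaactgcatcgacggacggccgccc

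Each of the 7 windows held at least 1 core match, against 48.4% of all 35116 RefSeq windows of 300 bases. The 7 windows were from 52.7% (EDN1) to 84.7% (VEGFB) G or C, and the share over all windows was not matched for base content. PGF had 2 windows and EDN1 had 3, of which the one nearest the GENCODE start was used. STC2 held 3 matches, of which the first and second share a base, and the other 6 genes held 1 each. The match began 234 bases upstream of the start in ANGPTL4, 101 in ADM, 61 in VEGFB, 162 in PGF, 59 in VEGFC and 123 in EDN1. None of the 7 windows held the E-box CACGTG, which contains the core and is present in 7.26% of all windows. A TATAAA motif stood 29 bases upstream in ANGPTL4, 27 in ADM and 31 in EDN1, and was found on either strand in 11.5% of all windows. PGF and VEGFC carry the core as well as the genes that rose, and a match of these letters is a description of the sequence only. The start used by RefSeq for ANGPTL4, at 8364155, lies inside the gene as GENCODE annotates it, which begins at 8363289.

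The libraries held between 27470978 and 56689369 reads on genes, and day 3 had both the deepest and the shallowest. Levels are the normalized values of the deposited table, in which 1 read was worth between 0.618 and 1.42, so that values of a few units rest on a few reads. Genes were tested if 3 or more of the 6 libraries reached a value of 10, and a gene is called higher or lower when its adjusted p-value from limma on log2(value + 1) is under 0.05. In RNA from whole cultures, fewer cells that carry an mRNA and less of it per cell cannot be told apart. As markers of colon epithelium, EPCAM (7227 ± 257 on day 3 and 7236 ± 173 on day 5, SD, n = 3), CDH1, KRT8, KRT18, KRT19 and CDX2 were present on both days, while VIL1 and CDX1 averaged no more than 2.80. Of these 6 markers tested, EPCAM did not pass and 5 were called higher on day 5, where 29.3% of all genes tested were. The rises were 6.18-fold for CDH1, 3.88-fold for KRT19, 2.03-fold for KRT8, 1.88-fold for KRT18 and 1.36-fold for CDX2. The summed level of the 8 epithelial markers moved with the day, from 37111 to 55188 on day 3 and from 100343 to 101436 on day 5. The sums for other cell types differed in range as well. Endothelial markers summed to between 142 and 144 on day 3 and between 255 and 302 on day 5, with most of it from ESAM, fibroblast markers to between 526 and 605 and between 1124 and 1200.1, with most of it from COL1A1, and leukocyte markers to between 16.7 and 24.1 and between 24.9 and 33.2. CDH5, ERG, DCN, PTPRC and CD3E averaged no more than 1.44 on either day. Of the endothelial, fibroblast and leukocyte markers tested, ESAM (119 on day 3, 223 on day 5), VWF (14.1, 32.1), COL1A1 (521, 1129) and LYZ (6.50, 14.2) rose, and COL1A2 and COL3A1 did not pass. LYZ and VWF passed the filter only through day 5. VWF (limma adjusted p = 0.0414) overlapped between the days, with day 5 replicate 3 at 19.7 and day 3 replicate 2 at 19.8. The part of these marker levels in the results was not tested.

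Most genes of the set had a higher mRNA level in the crowded cultures. Of the 10 genes, 8 could be tested, and 6 of them rose on day 5 (VEGFA, VEGFB, NRP1, ADM, ANGPTL4 and STC2), 1 fell (PGF) and 1 did not pass (EDN1). That is 7 of 8 called, where 56.9% of all genes tested were. VEGFC and STC1 were too low to test. Among all 20129 genes tested, 29.3% were called higher and 27.6% lower. All 6 genes that rose did so by at least 2-fold, which 10.2% of all genes did. VEGFB was under 2-fold without day 3 replicate 2 (log2 fold change 0.95) and with each library centred on its median (0.89). Their day 5 libraries all lay above their day 3 libraries, as in 33.4% of all genes. PGF fell by less than 2-fold, while 7.6% of all genes were called lower with a fall of 2-fold or more. The median log2 fold change was 1.89 over the 8 genes tested and 0.01 over all genes tested. Those 8 are the genes abundant enough for the filter and not the whole set.

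**Figure D1:**
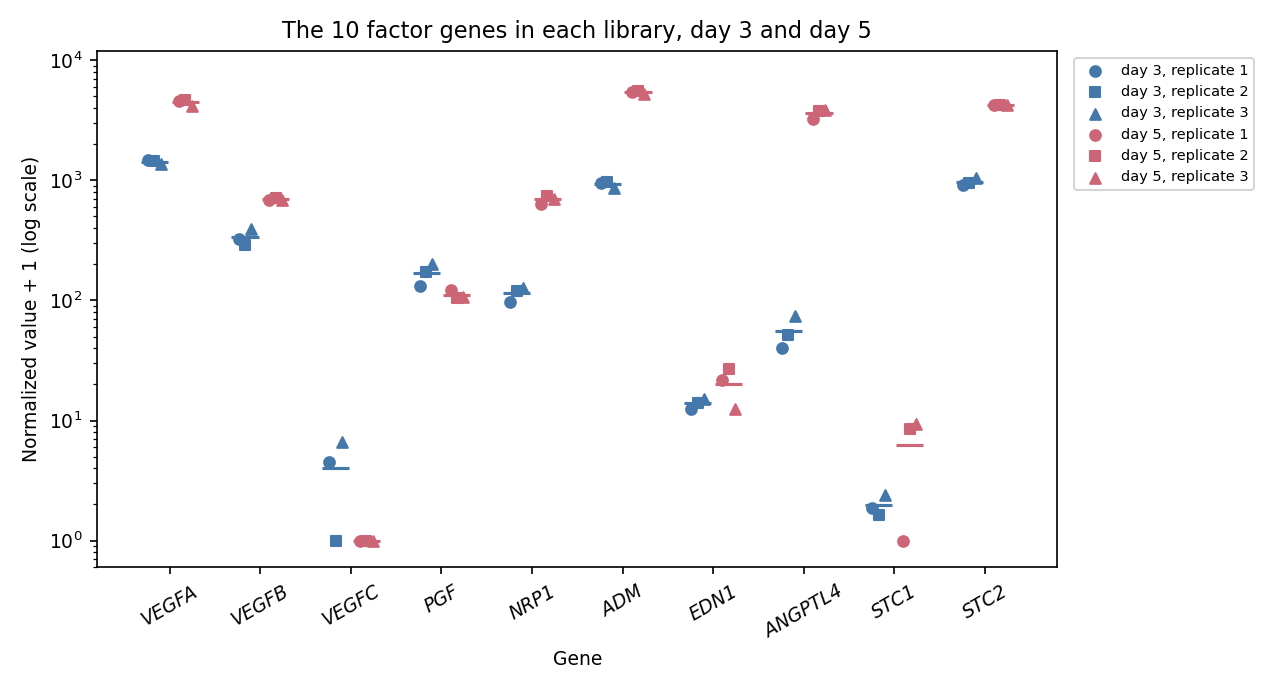
Normalized value plus 1 of each of the 10 genes (y axis, log scale) in each of the 6 libraries; blue is day 3, red is day 5, symbols are replicates and horizontal lines are means of 3 libraries. The 6 genes that rose show day 5 points well clear of the day 3 points, EDN1 overlaps between the days, and VEGFC and STC1 lie at a few reads.

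ANGPTL4 (chromosome 19, 8363289 to 8374370, plus strand, GRCh38) moved most. Its product is a secreted glycoprotein that blocks lipoprotein lipase and is induced by fasting and by low oxygen. Its normalized values were 39.5, 50.7 and 73.7 on day 3 and 3259, 3744 and 3862 on day 5. The mRNA thus went from 54.6 ± 17.4 (SD, n = 3) to 3622 ± 320 (SD, n = 3), a 66.3-fold difference, and even the lowest day 5 library was far above the highest day 3 library. The log2 fold change was 6.07 (standard error 0.23, limma adjusted p = 0.0001), which ranked 3 among the 20129 genes tested. The day 3 values rest on 45, 82 and 52 reads and the day 5 values on 3005, 3493 and 3730.

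ADM encodes the precursor of adrenomedullin and spans 10305073 to 10307397 of chromosome 11 (plus strand). Its values were 941, 969 and 870.4 on day 3 and 5393, 5585 and 5273 on day 5. The libraries of each day lay close together, and the days were far apart. The mean was 5.84 times higher on day 5 (log2 fold change 2.55, standard error 0.08, limma adjusted p = 8.27e-05), which ranked 97 among all genes tested.

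STC2 (chromosome 5, 173314723 to 173328447, minus strand) encodes a stanniocalcin that is made in many tissues. It stood at 920.1, 958 and 1038 on day 3 and at 4202, 4228 and 4224 on day 5, so that the 3 day 5 libraries were nearly the same. Its mean was 4.34 times higher (log2 fold change 2.12, standard error 0.08, limma adjusted p = 0.0001). Its relative STC1 was close to absent. STC1 had 1, 1 and 1 reads on day 3 and 0, 7 and 8 reads on day 5, which is 3 reads against 15 in all. Relative to depth the ratio was 6.35, with an exact 95% interval from 1.80 to 34.2 that covers counting error only. The day 5 libraries do not share a direction, since replicate 1 had no read and the others 7 and 8. Fitted without the filter, STC1 had an adjusted p-value of 0.447 (limma), so no difference was detectable at this depth. Per kilobase of exon, STC2 made up 99.9% of the stanniocalcin mRNA on day 3 and 99.8% on day 5 (SD 0.0442 and 0.132 percentage points, n = 3 each). That share differed by -0.0312 percentage points between the days, less than the spread between libraries (two-sided exact permutation test, p = 0.8).

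The VEGF ligands did not move as a group. VEGFA (chromosome 6, 43770184 to 43786487, plus strand) acts on endothelial cells through KDR and FLT1. Its values were 1469, 1442 and 1371 on day 3 and 4597, 4703 and 4181 on day 5. All 3 day 5 libraries were clearly above day 3, at a mean 3.15 times as high (log2 fold change 1.65, standard error 0.08, limma adjusted p = 0.000156).

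VEGFB (chromosome 11, 64234584 to 64239264, plus strand) binds FLT1 and NRP1 and is known for its part in fatty acid uptake and vessel survival rather than vessel growth. It had values of 324, 288 and 394 on day 3 and 680.0, 712 and 689.6 on day 5. The days did not overlap, the mean was 2.07 times higher, and the log2 fold change was 1.06 (standard error 0.13, limma adjusted p = 0.000944).

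PGF, placental growth factor, also binds FLT1 and NRP1 and lies on chromosome 14 (74941834 to 74955626, minus strand). It went the other way, with values of 131, 171 and 199.9 on day 3 and 121, 104 and 107 on day 5. The highest day 5 library, replicate 1, came close to the lowest day 3 library, replicate 1, without overlap, and 31.7% of all genes likewise had every day 5 library below every day 3 library. The log2 fold change was -0.57 (standard error 0.17, limma adjusted p = 0.0291). This call was lost in some fits that left out 1 library. The limma adjusted p-values were 0.0779 without day 3 replicate 2, 0.0564 without day 3 replicate 3, 0.0811 without day 5 replicate 2 and 0.0767 without day 5 replicate 3. It was also lost without the filter on low values (0.0908). In these fits the log2 fold change stayed between -0.57 and -0.43. The call held without day 3 replicate 1 (log2 fold change -0.74, limma adjusted p = 0.00631) and without day 5 replicate 1 (-0.64, adjusted p = 0.0433).

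VEGFC, a ligand of the lymphatic receptor FLT4, was detected by 4, 0 and 4 reads on day 3 and by no read on day 5. A count of 0 on day 5 allows up to 3 reads there, against 8 on day 3, and covers counting error only. Without the filter its adjusted p-value was 0.18 (limma), so no difference was detectable at this depth.

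**Figure D2:**
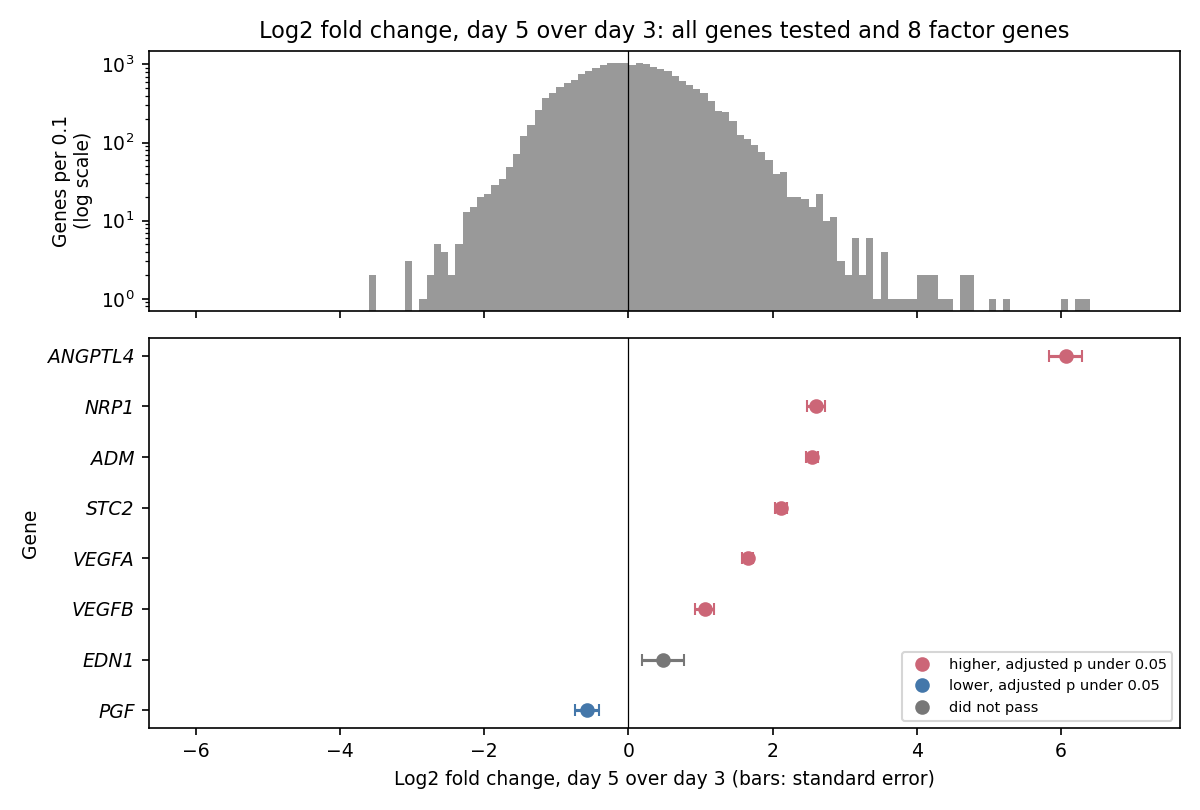
Upper panel: log2 fold change, day 5 over day 3, of all 20129 genes tested (x axis) as a histogram with a log count axis. Lower panel: the 8 genes tested among the factors, with bars for the standard error. ANGPTL4 at 6.07 lies at the far right of the distribution, EDN1 at 0.48 did not pass, and PGF at -0.57 is the 1 gene that fell.

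The shares of the 4 ligand mRNAs of the set were compared within each library. VEGFD, a further ligand given with the related genes, is not in this total. Divided by the length of their annotated exons, VEGFA made up 35.1%, 36.3% and 28.6% of the ligand total in the day 3 libraries and 46.5%, 46.2% and 44.02% in the day 5 libraries. Every day 5 share was above every day 3 share, and the means of 33.3% ± 4.10 and 45.6% ± 1.37 (SD, n = 3) differed by 12.3 percentage points (two-sided exact permutation test, p = 0.1, the smallest p that 3 libraries against 3 allow). PGF went from 9.61% ± 1.60 to 2.80% ± 0.258 (exact permutation p = 0.1), again with no overlap. VEGFB made up 56.7% ± 3.63 on day 3 and 51.6% ± 1.42 on day 5 and overlapped between the days (exact permutation p = 0.2). Adjustment over these shares cannot lower the p-values, so none passes 0.05. Such shares are free of the scaling between libraries but change with the length taken for a gene. With the canonical transcript, which is 3609 bases for VEGFA against 14431 bases of annotated exon, VEGFA made up 58.4% on day 3 and 73.5% on day 5.

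**Figure D3:**
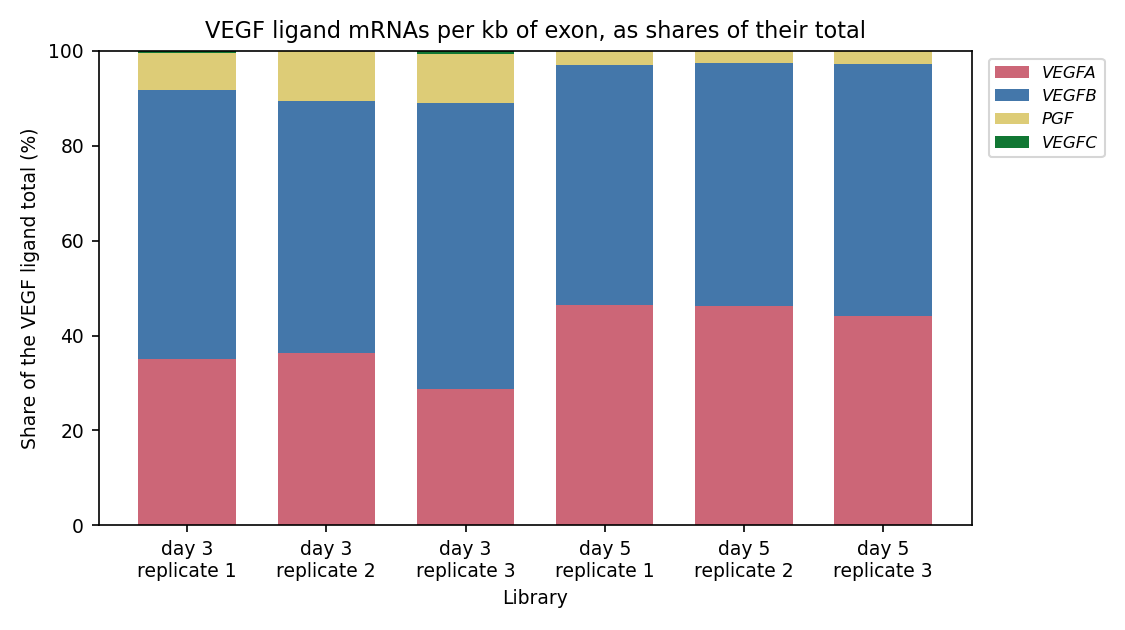
Share (y axis, %) of VEGFA, VEGFB, PGF and VEGFC in their summed value per kilobase of exon in each library (x axis). The VEGFA part is between 44.02% and 46.5% in the day 5 libraries and between 28.6% and 36.3% in the day 3 libraries, and the PGF part is thinner on day 5.

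NRP1, neuropilin, is the membrane protein of the set, a co-receptor for VEGF ligands and for class 3 semaphorins (chromosome 10, 33177492 to 33336262, minus strand). Its values were 96.6, 119.9 and 125 on day 3 and 637, 744 and 699 on day 5. The groups were well apart, at a mean 6.09 times as high (log2 fold change 2.60, standard error 0.13, limma adjusted p = 0.000146), at rank 86 among all genes tested. Its paralog NRP2 had values of 25.5, 31.5 and 53.9 on day 3 and 47.7, 20.4 and 39.3 on day 5 (log2 fold change -0.06, standard error 0.40, limma adjusted p = 0.912). The difference between the paralogs was not tested.

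EDN1 (chromosome 6, 12290361 to 12297194, plus strand) was low on both days. Its values were 11.4, 13.0 and 14.2 on day 3 and 20.6, 25.7 and 11.4 on day 5, so that day 5 replicate 3 lay just below the lowest day 3 library while the other day 5 libraries lay above all of day 3. The log2 fold change was 0.48 (standard error 0.29, limma adjusted p = 0.199). The call turned on that library: without day 5 replicate 3 the log2 fold change was 0.80 (limma adjusted p = 0.00909), and without day 5 replicate 2 it was 0.25 (limma adjusted p = 0.463). These values rest on 10 to 24 reads per library.

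Per kilobase of exon, ADM had the highest level of the 10 genes on both days, at 399 ± 21.9 on day 3 and 2329.9 ± 67.8 on day 5 (normalized value per kilobase, SD, n = 3). On day 3 it was followed by STC2 (192 ± 11.9) and VEGFB (170.2 ± 27.4), whose libraries overlapped, and by VEGFA (98.9 ± 3.51). PGF (28.8 ± 5.97) and ANGPTL4 (22.1 ± 7.05) came next and overlapped, ahead of NRP1 (9.87 ± 1.31), EDN1 (6.32 ± 0.681), and VEGFC and STC1, which overlapped at the bottom. On day 5 ANGPTL4 stood second, at 1463 ± 129, before STC2 (833 ± 2.73), VEGFB (352 ± 8.25), VEGFA (311 ± 19.1), NRP1 (60.2 ± 4.67), PGF (19.1 ± 1.62) and EDN1 (9.45 ± 3.57), with no overlap between neighbours down to STC1. ANGPTL4 therefore passed STC2, VEGFB, VEGFA and PGF in this order. The place of VEGFA depended on the length used: with canonical transcripts it stood above STC2 and VEGFB on both days, at 395 ± 14.1 on day 3 and 1245 ± 76.4 on day 5. No exon of the 10 genes overlaps an exon of another gene on the same strand in GENCODE, and reads were counted by strand.

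The related genes of these factors included both rises and falls. In a list of 15 other genes of the VEGF and semaphorin system, 13 could be tested, 6 of them rose and 4 fell, with a median log2 fold change of 0.27, beside 29.3% of all genes higher and 27.6% lower. KDR, the main signalling receptor for VEGFA, was low but rose (3.03-fold, limma adjusted p = 0.00389). Its values were 11.4, 6.18 and 7.09 on day 3 and 30.4, 25.7 and 18.6 on day 5. KDR passed the filter only through its day 5 libraries. The receptors FLT1 and FLT4 were not tested, and FLT1 averaged 0 on day 3 and 0.707 on day 5 and FLT4 5.10 and 5.30. The rises also held those of the semaphorin SEMA3B (log2 fold change 1.69) and the semaphorin receptor PLXND1 (1.34). The falls were led by the ligand VEGFD, at 52.5 ± 3.67 on day 3 and 25.8 ± 3.84 on day 5 (SD, n = 3; limma adjusted p = 0.00107), and by SEMA3D (log2 fold change -0.56) and SEMA3A (-0.41).

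Of 16 other genes of the adrenomedullin and endothelin system, 10 could be tested, 4 of them rose and 2 fell, with a median log2 fold change of 0.21. These counts are near the background of 29.3% higher and 27.6% lower. CALCRL, the receptor that binds adrenomedullin together with a RAMP protein, fell from 80.8, 94.6 and 79.4 to 33.6, 37.5 and 25.9 (log2 fold change -1.38, standard error 0.16, limma adjusted p = 0.000774). Its partner RAMP1 did not pass (log2 fold change -0.18, limma adjusted p = 0.45), and RAMP2 averaged no more than 0.702. The endothelin receptor EDNRA fell as well (log2 fold change -0.44, limma adjusted p = 0.0244). Of 5 processing enzymes tested, 3 rose. FURIN, a protease that cleaves many secreted precursors, rose 3.44-fold (log2 fold change 1.79, limma adjusted p = 0.000227), ECE1, which makes mature endothelin, 2.46-fold (1.30, adjusted p = 0.000258), and PAM, which amidates adrenomedullin, 1.46-fold (0.55, adjusted p = 0.00163). ECE2 (log2 fold change -0.32, limma adjusted p = 0.25) and KEL (0.84, adjusted p = 0.28) did not pass. The peptide gene ADM2 rose 1.82-fold (limma adjusted p = 0.017).

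Around ANGPTL4, 10 of 19 genes of its family, of lipoprotein lipase handling and of the PPAR pathway, whose nuclear receptors are known to induce ANGPTL4, could be tested, and 7 of them rose while the other 3 did not pass. The median log2 fold change was 1.00, and 29.3% of all genes were higher. PPARD led with 714.7, 742 and 880.3 on day 3 and 2274, 2258 and 2283 on day 5 (log2 fold change 1.55, standard error 0.10, limma adjusted p = 0.000211), followed by RXRA (1.26) and PPARA (1.07), while PPARG had a log2 fold change of -0.23 and did not pass (limma adjusted p = 0.144). No other ANGPTL gene passed the filter, and LPL, the lipase itself, averaged 0.791 on day 3 and 1.05 on day 5.

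As a comparison, all 20 genes of a list of HIF targets whose products stay in or on the cell were called higher on day 5, with a median log2 fold change of 2.55, where 29.3% of all genes tested were called higher. This list was chosen with earlier results of these data known, so the count is a description only. CA9, a cell surface carbonic anhydrase, averaged 1.92 on day 3 and 199 on day 5 and passed the filter only through its day 5 libraries. The other 19 genes were all called higher too, with a median log2 fold change of 2.53, from 0.93 for PFKFB3 to 4.49 for DDIT4 and 4.69 for NDRG1. The log2 fold changes of VEGFA, VEGFB, NRP1, ADM and STC2 lay within the range of these 19 genes. That of ANGPTL4 (6.07) lay above this range but below CA9 (6.305), and those of EDN1 (0.48) and PGF (-0.57) lay below it. Of 8 HIF subunit and control genes, 4 rose and 1 fell, with a median log2 fold change of 0.49, on the same background of 29.3% higher and 27.6% lower. EPAS1, an oxygen-regulated alpha subunit, rose 3.98-fold, from 377, 507.5 and 513 to 1715, 1882 and 1960.2 (log2 fold change 2.00, standard error 0.14, limma adjusted p = 0.000235). HIF1A, the other main alpha subunit, fell, from 5836, 6526 and 7051 to 4179, 4101 and 4255 (log2 fold change -0.63, standard error 0.09, limma adjusted p = 0.0021). These are mRNA levels, and the protein of both subunits is set largely by oxygen.

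**Figure D4:**
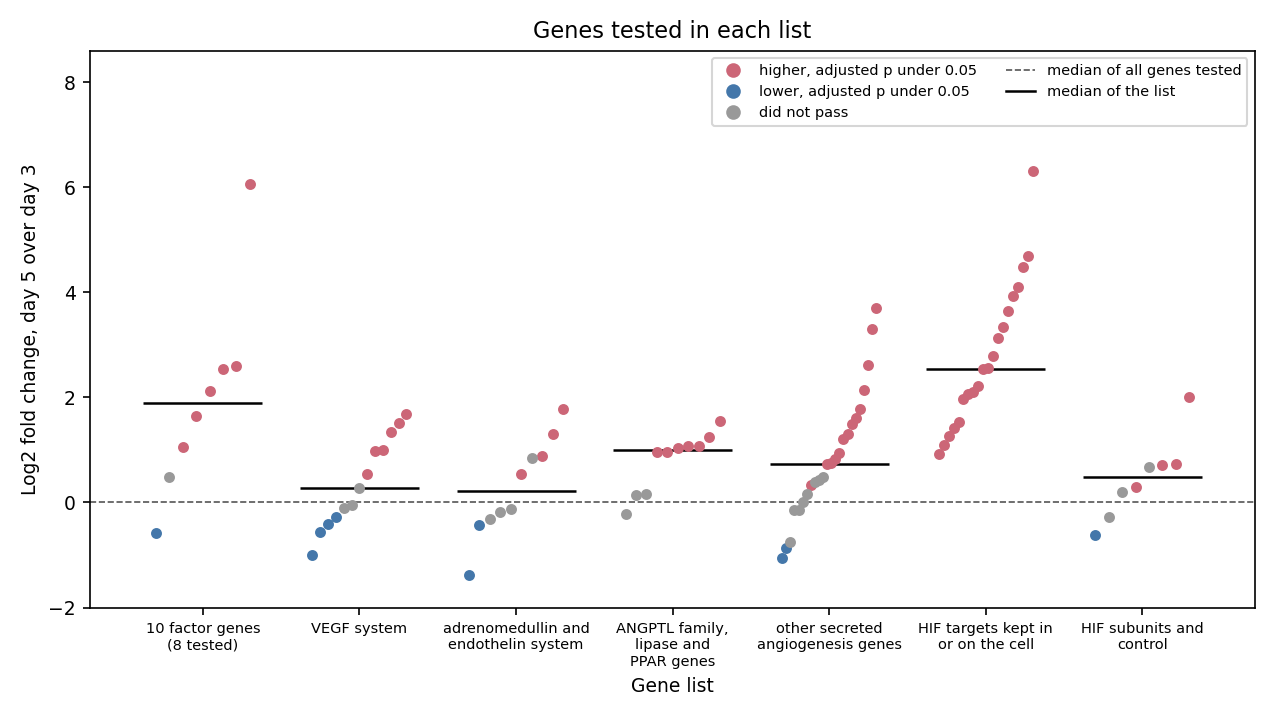
Log2 fold change, day 5 over day 3 (y axis), of each gene tested in the factor set and in 6 lists of related genes; red points were called higher, blue lower and grey did not pass, black lines are list medians and the dashed line is the median of all genes tested, 0.01. The list of HIF targets kept in or on the cell is red throughout, while the VEGF system and the adrenomedullin and endothelin system hold points on both sides of 0.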

How the data were processed

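Whole cell RNA was depleted of rRNA and made into strand-specific libraries with UMI adapters, and the authors mapped the reads to Ensembl genes of hg38 in CLC Genomics Workbench. The submitters' processing notes also name bcl2fastq, FastQC (version 0.11.8) and MultiQC (version 1.7). The values deposited are a signal, reads per gene divided by a size factor for each library. In all 6 libraries 100% of these values were whole multiples of 1 read (within 0.01 of a read), which gave back the reads. The same table holds the authors' own fold changes and p-values, which were not used, nor were 2 tables of mature miRNAs. The study's methods name TMM, while the column names of the table are those of DESeq2, so which size factors were applied is not given in the sources used here.

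The tests had been planned for normalized values or raw counts, and limma (version 3.58.1, R 4.3.3, eBayes defaults) was fitted to log2(value + 1) of 20129 genes that reached 10 in 3 or more of the 6 libraries, day 5 against day 3, with Benjamini-Hochberg adjustment over all of them and a threshold of 0.05. Log2 fold changes of low genes are understated on this scale. Fold values are ratios of means. Two-sided exact permutation tests of shares used scipy 1.17.1, and with 3 libraries a day they cannot go below p = 0.1. edgeR (version 4.0.16) and DESeq2 (version 1.42.0) on the recovered reads were alternatives. The fit was first tested on simulated data with known changes and the same extra spread beyond counting error for every gene. That test does not give its error rates in these libraries. Exon lengths and loci came from GENCODE 44 on GRCh38. The 10 genes and all lists were chosen with earlier results of these data known. Named were all 10 genes and, per list, up to 3 called rises and falls with the largest change plus receptors and processing enzymes, except 1 result that is not reported here. Figures were drawn with matplotlib 3.10.9.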

Additional observations from a re-analysis of the deposited data

How the results depend on the processing

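The 6 rises kept their direction and their side of the threshold in each of the 14 alternatives: each library divided by its own total, no filter, 0.1 as the pseudocount, a replicate block, leaving out each of the 6 libraries, a 2-fold minimum, edgeR, DESeq2, and centring on the median of tested genes, which was chosen after seeing the data. Their log2 fold changes ranged from 5.86 to 6.30 for ANGPTL4, 2.43 to 2.67 for NRP1, 2.38 to 2.61 for ADM, 1.95 to 2.19 for STC2, 1.48 to 1.72 for VEGFA and 0.89 to 1.18 for VEGFB. PGF kept its direction in all 14 but its call in 7, with limma adjusted p-values up to 0.0908, while edgeR (0.00397) and DESeq2 (0.00993) called it; a 2-fold minimum also ends its call. EDN1 passed in 1 of 14. Without single libraries, 6 to 7 of the factor genes and 9780 to 11300 of all genes were called. Over all genes, 11450 were called, 51.5% of them higher, and a 2-fold minimum left 3589, while the recovered reads gave 12280 calls with edgeR and 11131 with DESeq2. Median centring moved the median of all genes by more than 0.1, from 0.01 to -0.16, and the share of higher calls to 39.6%, and on that scale, too, 6 of the factor genes were higher and 1 lower.

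The samples share only a replicate number. Deviations from the day means correlated between -0.011 and 0.034 for the same number, and not every library correlated best with its own number. With it as a replicate block, 10533 genes and 6 factor genes were called, PGF (limma adjusted p = 0.0672) being the one lost, and within-pair exact permutation tests gave p = 0.25 for the VEGFA share, the smallest p that 3 pairs allow, with a difference of 12.3 percentage points, and 0.75 for the STC2 share, with -0.0312. The day 5 minus day 3 difference of the VEGFA share ranged from 9.92 to 13.7 percentage points without single libraries. It was 10.9 with no division by length and 15.1 with canonical transcripts (chosen after seeing the data). That of the STC2 share changed sign without day 5 replicate 2 (0.00109) or 3 (0.0125), and ranged from -0.107 to 0.0125. Low counts limit EDN1, STC1 and VEGFC.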

Other observations

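Other secreted regulators of vessels also differed between the days. Of 30 such genes, 24 could be tested, 14 of them rose and 2 fell on day 5, with a median log2 fold change of 0.74, where 29.3% of all genes tested were higher and 27.6% lower. IGFBP3, which binds insulin-like growth factors, rose 10.3-fold (log2 fold change 3.31, limma adjusted p = 0.00018), and PLAUR, the urokinase receptor, which is anchored in the membrane, 6.11-fold (2.61). The chemokine CXCL8 fell by 1.06 and the growth factor FGF2 by 0.86 on the log2 scale (limma adjusted p = 0.00129 and 0.00425).

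VEGFA and STC2 are also known to respond to ATF4, a transcription factor of the stress response. In a list of 12 genes of ATF4 and the unfolded protein response, 1 rose and 6 fell on day 5, with a median log2 fold change of -0.57, against the same background of 29.3% higher and 27.6% lower. The falls were led by ASNS (-1.26), SLC7A11 (-1.26) and PSAT1 (-1.01), genes of amino acid supply, and ATF4 itself went from 9215 ± 1113 to 5793 ± 149 (SD, n = 3; log2 fold change -0.66, limma adjusted p = 0.00274). The 1 that rose was the chaperone HSPA5 (0.48). These are mRNA levels, and the part of ATF4 in the levels of VEGFA and STC2 was not tested. Of 10 genes of the YAP pathway, 5 rose and 1 fell, with a median log2 fold change of 0.52, and on that background so few genes say nothing of the pathway. AXL (2.38-fold), CRIM1 (2.01-fold) and TEAD1 (1.70-fold) rose most, and ANKRD1 fell by 1.47 on the log2 scale. ANKRD1 passed the filter only through its day 3 libraries, at 11.4, 11.1 and 12.8. On day 5 it stood at 6.51, 2.14 and 3.11, values that rest on a few reads.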
